A study of Drosophila melanogaster with 13 samples.

Results

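Adult heads of Drosophila melanogaster yielded 32 probe sets of uncharacterised transcripts that were higher on every array from flies with a Su(var)3-9 mutation than on every array from flies without it. Affymetrix arrays measure a transcript by several short probes that are read as 1 value, its probe set, and all values here are log2 signals. Of 18769 probe sets compared, 10388 were uncharacterised, meaning that the platform annotation gave them no gene symbol or only a systematic one of the form CG and a number. Members were chosen by their signals: the lowest of the 6 arrays with the Su(var)3-9 mutation had to lie at least 0.5 above the highest of the 6 arrays without it. This pattern was met by 38 uncharacterised probe sets (0.366%), and 6 of them were left out by the rule. The opposite pattern, all 6 arrays at least 0.5 lower, was met by 247 (2.38%). The probe sets left out were CG40485 and 5 probe sets, CG4962 and CG2444 among them, whose lowest Su(var)3-9 array was 0.5 or more above all other arrays. Of the 32 members, 23 had a CG symbol, each a different gene, and 9 had none. The levels in the groups with and without the Su(var)3-9 mutation were therefore fixed by the choice of members and are given as a description.

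All flies shared the yw background and 1 copy of the balancer chromosome CyO, a marked and rearranged second chromosome. The control group, yw, was yw; +/CyO, and the Egg group carried the mutant chromosome egg235 over CyO. In the Su(var)3-9 group the second chromosome was that of the control and chromosome 3 carried the allele Su(var)3-906. The Egg+Su(var)3-9 group, called the double mutant here, had the genotype yw; egg235/CyO; Su(var)3-906. Each group was measured on 3 arrays that the labels call biological replicates. The age and sex of the flies and the number of heads in a sample were not given in the sources used here. The same chromosome 3 was carried by both groups with the Su(var)3-9 mutation, so the mutation and other differences of that chromosome cannot be told apart in these genotypes, and the same holds for egg235 and the chromosome that carries it. Whether Su(var)3-906 was homozygous was not given in the sources used here.

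Su(var)3-9 encodes a histone methyltransferase of the SUV39H family, and egg encodes the fly homolog of SETDB1. Both enzymes methylate histone H3 at lysine 9, a mark bound by the heterochromatin protein HP1, and Su(var)3-9 was named as a suppressor of position-effect variegation, the patchy silencing of genes placed beside heterochromatin. CG symbols come from the computed gene models of the fly genome and are kept until a gene is given a name, so some CG genes encode proteins of well-known families.

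The mutated genes had no named probe set here, so the genotypes were not checked by them. Array medians were 5.71 to 6.14. Heads were checked by marker genes, and each list is given by its median log2 signal per array. The median of 17 neuronal genes was 9.59 to 9.92 in yw, 10.45 to 10.50 in Egg and 10.29 to 10.38 on the 6 arrays with the Su(var)3-9 mutation. Markers of other body parts were also present. The median of 24 testis genes was 7.58 to 8.30 in yw, 5.61 to 5.79 in Egg and 4.25 to 4.97 with the Su(var)3-9 mutation, and that of 21 gut genes was 10.80 to 11.21, 7.38 to 7.98 and 5.06 to 6.83. The median of 9 fat body genes was 10.09 to 10.31 in yw, 9.10 to 9.26 in Egg, 11.01 to 11.38 in Su(var)3-9 and 11.06 to 11.31 in the double mutant, and so moved with the members. On arrays of whole heads, fewer cells of a type and less RNA per cell cannot be told apart.

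The members covered a wide range of signal. Their yw means ran from 4.05 to 12.16 with a median of 7.71, and 8 of the 32 lay below the median probe set of the control, at 6.11. A filter at the 40th percentile of mean signal would have kept 31 of them. Su(var)3-9 minus yw was 0.73 to 3.63 over the members, with a median of 1.20 against 0.21 over all probe sets. The double mutant minus Egg was 0.59 to 2.84, with a median of 1.02 against 0.03. All 32 differences were positive in both comparisons, as the rule required. The median standard deviation of a member within a group was 0.13 in yw, 0.10 in Egg, 0.12 in Su(var)3-9 and 0.08 in the double mutant. The members nearest to the threshold from inside were CG13043, CG13056 and 1625405_at, with gaps of 0.52, 0.51 and 0.50, and those nearest from outside were CG13722, CG9733 and 1630585_s_at, with gaps of 0.50, 0.49 and 0.49.

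**Figure D1:**
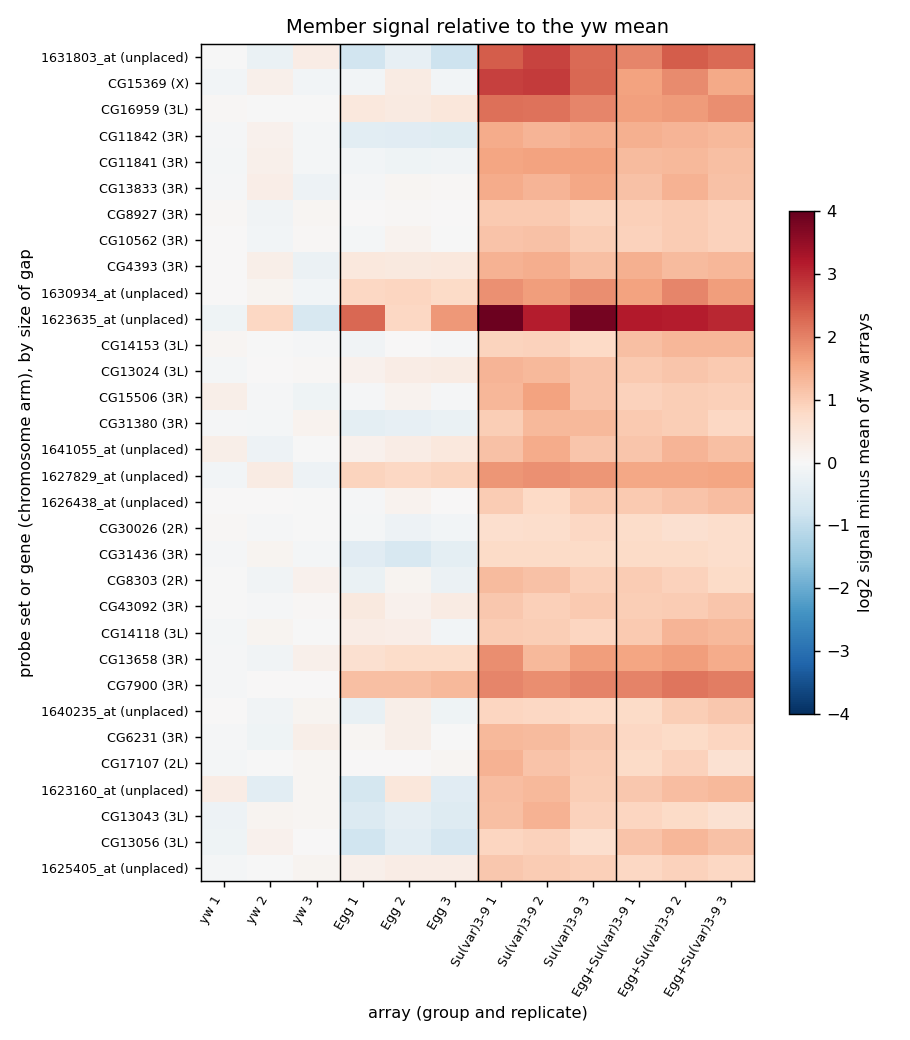
Colours give the log2 signal of each of the 32 members (rows, by size of gap) on the 12 arrays (columns, by group and replicate), minus the mean of the 3 yw arrays. The 6 arrays with the Su(var)3-9 mutation are red for every member, while Egg arrays are near the control for most members and partly raised for CG7900, 1630934_at, 1627829_at and 1623635_at.

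The size of the gap depended on how arrays were scaled. With each array centred on its median, 99 uncharacterised probe sets met the rule, all 32 members among them. Under cyclic loess, which evens out differences between arrays over the range of signal, 15 did, all of them members. Centring moved the median of all probe sets from 0.21 to 0.58 in Su(var)3-9 minus yw and from 0.03 to 0.16 in the double mutant minus Egg, and cyclic loess moved them to -0.00 and -0.03. Relative to the median of all probe sets, the member median was 0.98, 0.98 and 0.93 in Su(var)3-9 minus yw as deposited, centred and after cyclic loess. In the double mutant minus Egg it was 0.99, 0.99 and 1.03. Centring shifts all probe sets of an array alike, so the values as deposited and centred are equal by construction. Each member stayed higher in both comparisons under both scalings, with a smallest difference of 0.43 after cyclic loess.

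A pair of neighbouring genes on 3R, CG11841 and CG11842, had gaps of 1.02 and 1.16, below only those of 1631803_at, CG15369 and CG16959. Both encode secreted serine proteases of the trypsin fold. CG11842 read 8.26, 8.48 and 8.24 on the yw arrays, 7.90, 7.87 and 7.82 in Egg, 9.80, 9.69 and 9.78 in Su(var)3-9 and 9.73, 9.69 and 9.63 in the double mutant. CG11841 read 9.19, 9.47 and 9.20 in yw, 9.18, 9.12 and 9.15 in Egg, 10.86, 10.90 and 10.89 in Su(var)3-9 and 10.56, 10.59 and 10.48 in the double mutant. Neither gene had overlap between the groups with and without the Su(var)3-9 mutation, and CG11841 was lower in the double mutant than in Su(var)3-9 on every array. Su(var)3-9 minus yw was 1.43 ± 0.08 for CG11842 and 1.60 ± 0.08 for CG11841 (SE, n = 3 arrays per group here and below). The double mutant minus Egg was 1.82 ± 0.08 for CG11842 and 1.40 ± 0.08 for CG11841. No coding gene lies between them in the gene order of the RefSeq Release 6 annotation.

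CG11843, the next gene on that side and a protease gene of the same kind, was not a member. It read 4.31, 4.42 and 4.70 in yw, 4.81, 4.89 and 4.98 in Egg, 6.23, 5.82 and 6.0 in Su(var)3-9 and 5.41, 5.69 and 5.31 in the double mutant. Its 6 arrays with the Su(var)3-9 mutation were above the other 6, with a gap of 0.34. On the other side CG11837 had a gap of 0.24, while Slu7 and Pkc98E further on had overlapping groups (gaps of -0.12 and -0.53).

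**Figure D2:**
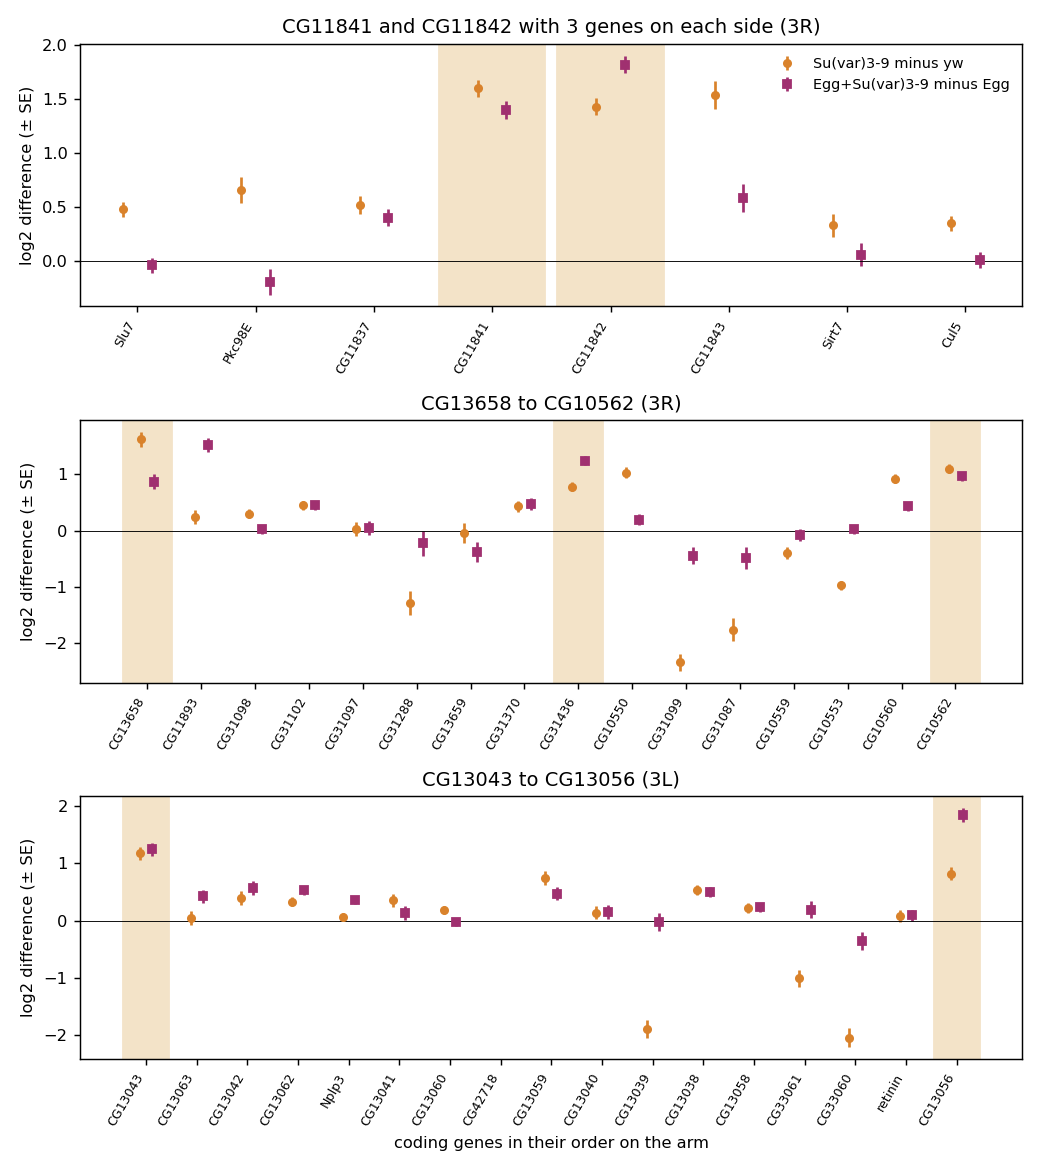
Points are log2 differences with standard errors for Su(var)3-9 minus yw (circles) and double mutant minus Egg (squares), with coding genes in their order on the arm and members shaded. CG11841, CG11842 and CG11843 stand above their neighbours, while genes between CG13658 and CG10562 and between CG13043 and CG13056 lie on both sides of 0.

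On 3R, 4 members encode proteins of the ecdysteroid kinase-like family, which resemble small-molecule kinases and have been linked to steroid hormone phosphorylation and to detoxification in insects. These were CG10562, CG31436, CG13658 and CG31380, and they were grouped after their values were seen. Other genes of the family were not collected, so the share of the family with this pattern is not given. CG10562 read 8.74, 8.61 and 8.77 in yw, 8.62, 8.85 and 8.69 in Egg, 9.85, 9.88 and 9.69 in Su(var)3-9 and 9.64, 9.74 and 9.64 in the double mutant. CG31436 read 8.21, 8.36 and 8.18 in yw, 7.79, 7.61 and 7.86 in Egg, and 8.94 to 9.03 on the other 6 arrays. The CG31436 arrays with the Su(var)3-9 mutation were the most even of the set, and Egg was the lowest group, with no overlap with yw. The dimmer CG13658 averaged 4.05 ± 0.18 (SD, n = 3) in yw, 4.76 ± 0.05 in Egg, 5.67 ± 0.28 in Su(var)3-9 and 5.62 ± 0.10 in the double mutant. CG31380 averaged 4.90 ± 0.12, 4.57 ± 0.06, 6.08 ± 0.18 and 5.85 ± 0.12 in the same order. Both lay below the median probe set in yw, and Egg stood between yw and the other groups for CG13658 but below yw for CG31380.

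From CG13658 through CG31436 to CG10562 the annotation lists 16 coding genes in a row, and all 13 that were not members were measured. Of these, 3 lay above without overlap on the arrays with the Su(var)3-9 mutation, CG10560, CG31102 and CG31370 (gaps of 0.28, 0.25 and 0.12), against 8.49% of all placed coding genes. None reached 0.5, and the median of the 13 was 0.03 in Su(var)3-9 minus yw and 0.02 in the double mutant minus Egg. CG31099 averaged 8.18 in yw, 6.17 in Egg, 5.84 in Su(var)3-9 and 5.72 in the double mutant, opposite in direction to the members beside it. CG11893, next to CG13658, averaged 8.34, 7.0, 8.58 and 8.51 and was thus lower in Egg than in the other groups. CG31380 lies 47 coding genes beyond CG10562.

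CG13043 and CG13056 lie on 3L at either end of 17 coding genes that include retinin, a gene for a protein of the corneal lens, and the neuropeptide-like gene Nplp3. CG13056 read 9.14, 9.48 and 9.32 in yw, 8.51, 8.89 and 8.65 in Egg, 10.17, 10.24 and 9.99 in Su(var)3-9 and 10.45, 10.65 and 10.48 in the double mutant. CG13043 read 8.91, 9.20 and 9.19 in yw, 8.54, 8.73 and 8.58 in Egg, 10.29, 10.48 and 10.03 in Su(var)3-9 and 9.96, 9.88 and 9.71 in the double mutant. Egg was the lowest group for both genes, whereas the double mutant was the highest group for CG13056 and second to Su(var)3-9 for CG13043. Among the 14 measured genes between them, 4 lay above without overlap, against 8.49% of all placed coding genes, and none by 0.5. This stretch was chosen after its values were seen, so the count is a description. The medians of the 14 were 0.17 in Su(var)3-9 minus yw and 0.21 in the double mutant minus Egg. retinin averaged 13.41, 13.78, 13.49 and 13.87 in yw, Egg, Su(var)3-9 and the double mutant, with overlapping groups.

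CG15369, which encodes a cystatin-like inhibitor of cysteine proteases and was the only member on X, had the largest gap of the named members. It read 4.79, 5.11 and 4.80 in yw, 4.78, 5.22 and 4.78 in Egg, 7.63, 7.69 and 7.20 in Su(var)3-9 and 6.52, 6.78 and 6.43 in the double mutant. The yw and Egg arrays overlapped at a low signal, and every double mutant array lay between them and every Su(var)3-9 array. CG16959 on 3L read 6.18, 6.09 and 6.10 in yw, 6.55, 6.49 and 6.57 in Egg, 8.32, 8.28 and 8.08 in Su(var)3-9 and 7.75, 7.83 and 7.97 in the double mutant. All 4 groups were separate for this gene, in the order yw, Egg, double mutant and Su(var)3-9. Its probe set is of the class whose probes can match transcripts of several genes, as is that of CG6231.

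**Figure D3:**
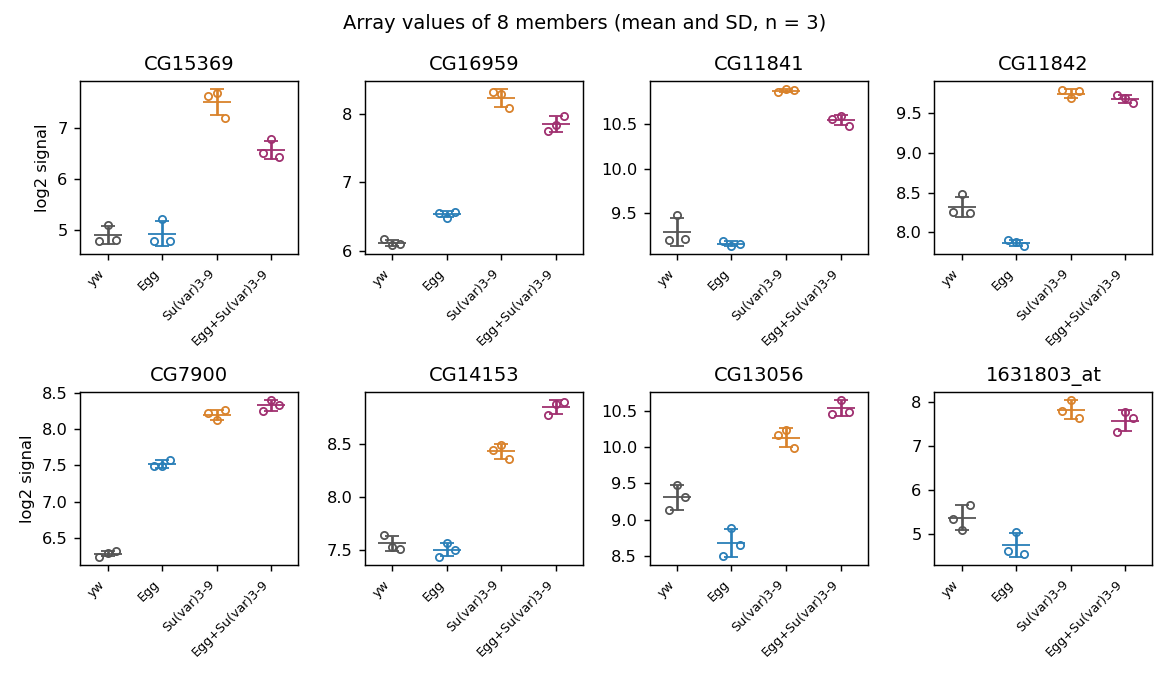
Open circles are log2 signals of single arrays in the 4 groups for 8 members, with horizontal marks at the mean and bars of 1 SD (n = 3). The double mutant lies below Su(var)3-9 for CG15369, CG16959 and CG11841 and above it for CG14153 and CG13056, and Egg lies between yw and Su(var)3-9 for CG7900.

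Enzyme and transporter genes made up several other members. CG13833 on 3R, a short-chain dehydrogenase, averaged 8.67 ± 0.25 in yw, 8.70 ± 0.06 in Egg, 10.12 ± 0.10 in Su(var)3-9 and 9.90 ± 0.13 in the double mutant. CG8303 on 2R, a fatty acyl-CoA reductase of the kind that makes long-chain alcohols, averaged 7.03 ± 0.15, 6.90 ± 0.22, 8.16 ± 0.16 and 7.93 ± 0.14. CG6231 on 3R, a relative of organic cation transporters, averaged 8.85 ± 0.20, 8.94 ± 0.13, 10.06 ± 0.13 and 9.67 ± 0.06. For these 3 genes yw and Egg overlapped, and the Su(var)3-9 mean was above that of the double mutant. CG7900 on 3R, which belongs to the fatty acid amide hydrolases, read 6.23, 6.29 and 6.31 in yw, 7.49, 7.49 and 7.58 in Egg, 8.22, 8.13 and 8.27 in Su(var)3-9 and 8.25, 8.41 and 8.33 in the double mutant. Its Egg arrays lay between yw and the groups with the Su(var)3-9 mutation, nearer to the latter. CG4393 on 3R, an ankyrin repeat protein, averaged 5.98 ± 0.24 in yw, 6.39 ± 0.02 in Egg and 7.32 in both other groups (SD of 0.13 and 0.09).

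The remaining named members are given without a role. On 3R, CG8927 averaged 8.90 ± 0.11 in yw, 8.94 ± 0.01 in Egg, 9.90 ± 0.08 in Su(var)3-9 and 9.87 ± 0.06 in the double mutant, so that the groups formed 2 tight pairs. CG43092 averaged 9.73 ± 0.05, 10.03 ± 0.11, 10.76 ± 0.06 and 10.76 ± 0.06, and CG15506 averaged 6.0 ± 0.21, 6.01 ± 0.11, 7.37 ± 0.24 and 6.95 ± 0.03. On 3L, CG14153 read 7.64, 7.53 and 7.51 in yw, 7.43, 7.56 and 7.50 in Egg, 8.44, 8.49 and 8.36 in Su(var)3-9 and 8.77, 8.88 and 8.90 in the double mutant. CG14153 was thus a member whose double mutant arrays all exceeded its Su(var)3-9 arrays. CG13024 on 3L averaged 7.35 ± 0.06, 7.62 ± 0.09, 8.61 ± 0.12 and 8.42 ± 0.05, and CG14118 on 3L averaged 4.50 ± 0.09, 4.64 ± 0.21, 5.45 ± 0.08 and 5.73 ± 0.16. CG14118 was the dimmest gene in the groups with the Su(var)3-9 mutation but for CG13658 in the double mutant. On chromosome 2, CG30026 (2R) averaged 7.86 ± 0.05, 7.73 ± 0.07, 8.59 ± 0.09 and 8.56 ± 0.04, and CG17107 (2L) averaged 6.56 ± 0.07, 6.59 ± 0.04, 7.74 ± 0.19 and 7.32 ± 0.16.

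The largest gap of all, 1.66, was that of 1631803_at, a probe set without a gene name. It read 5.35, 5.09 and 5.66 in yw, 4.60, 5.05 and 4.55 in Egg, 7.80, 8.06 and 7.64 in Su(var)3-9 and 7.32, 7.78 and 7.63 in the double mutant. The brightest member, 1627829_at, read 12.04, 12.48 and 11.96 in yw, 13.04, 13.00 and 13.06 in Egg, 13.92, 13.98 and 13.91 in Su(var)3-9 and 13.71, 13.71 and 13.74 in the double mutant. Its 4 groups did not overlap, and Egg lay about midway between yw and Su(var)3-9. The same order held for the means of 1630934_at, at 10.44 ± 0.11, 11.25 ± 0.04, 12.23 ± 0.10 and 12.18 ± 0.19 in yw, Egg, Su(var)3-9 and the double mutant, where the last pair overlapped. The least even member was 1623635_at, with 5.39, 6.41 and 4.92 in yw, 7.88, 6.39 and 7.30 in Egg, 9.49, 8.72 and 9.40 in Su(var)3-9 and 8.74, 8.71 and 8.60 in the double mutant. Its yw and Egg arrays overlapped. 1641055_at averaged 8.63 ± 0.23, 8.93 ± 0.12, 9.88 ± 0.20 and 9.85 ± 0.12, and 1626438_at averaged 7.03 ± 0.03, 7.07 ± 0.11, 7.98 ± 0.13 and 8.16 ± 0.08. The other unnamed members, 1640235_at, 1623160_at and 1625405_at, had gaps of 0.53, 0.52 and 0.50.

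Chromosome position was not used to choose the members. Of the 23 named members, 13 lay on 3R, 6 on 3L, 2 on 2R, 1 on 2L and 1 on X, and none on chromosome 4. Chromosome 3 thus held 19 of 23 (82.6%), against 2481 of 5581 placed CG probe sets (44.5%). For probe sets with another single symbol that met the same gap of 0.5, the count was 29 of 53 (54.7%). For CG probe sets with the opposite pattern, at least 0.5 lower on all arrays with the Su(var)3-9 mutation, it was 104 of 235 (44.3%). These shares are descriptions and were not tested. The share was 54.8% (57 of 104) with a gap of 0.25, 75.0% (3 of 4) with a gap of 1.0, 56.2% (45 of 80) with centred arrays, 90.0% (9 of 10) after cyclic loess and 67.9% (19 of 28) without double mutant replicate 1.

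**Figure D4:**
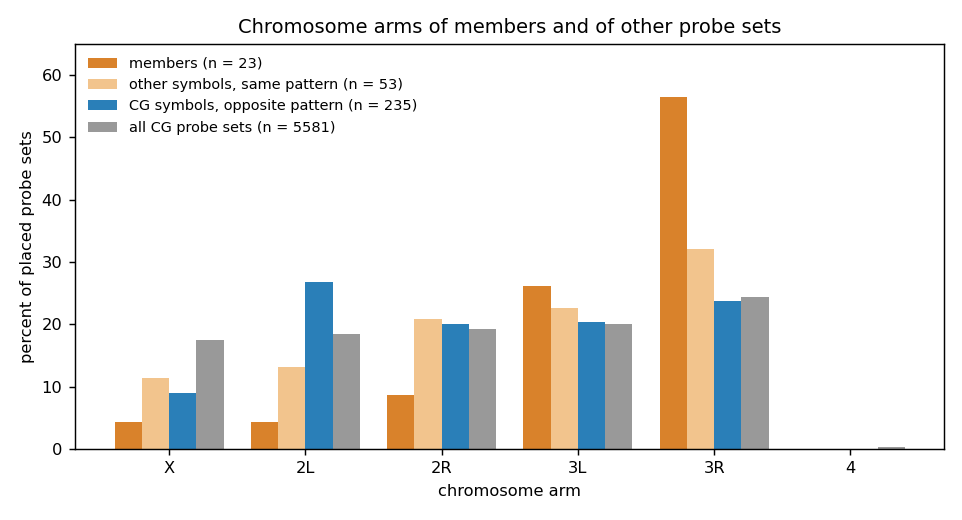
Bars are the percent of placed probe sets on each chromosome arm for the members, for probe sets with other symbols and the same pattern, for CG probe sets with the opposite pattern and for all CG probe sets. The members stand at 56.5% on 3R and 26.1% on 3L, against 24.4% and 20.1% of all CG probe sets.

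The places of the members along 3R are given as a description, since the ranks of other probe sets were not set beside them. In the order of the 3398 coding genes of the arm, CG7900 had rank 461, CG8927 1507 and CG6231 1893. The other members there had ranks of 2271 to 3112. Su(var)3-9 itself lies on 3R, and 1 of the 13 members there lay within 2 Mb of it. Of the 1359 CG probe sets placed on 3R, 186 lay in that window. With 13 members, nothing is read from this count. CG11841 and CG11842 were the only members with at most 2 coding genes between them. Within 3 coding genes on either side of the named members, 122 other genes were measured. Of these, 2 lay at least 0.5 above on the arrays with the Su(var)3-9 mutation (1.64%, against 0.645% of all placed coding genes). They were Obp99b and Obp99d, odorant binding protein genes on 3R, with gaps of 2.15 and 0.60. In the opposite direction, 5 of the 122 lay at least 0.5 below (4.1%, against 3.08%). Of the 98 neighbours on 3L and 3R, 2.04% lay at least 0.5 above and 4.08% below. The shares of all placed coding genes on these arms were 0.893% and 3.23%. A further measure was overlap alone: 18 of the 122 (14.8%) lay above without overlap, against 8.49% of all placed coding genes. On 3L and 3R this share was 13.3%, against 9.18%. The shares of neighbours are descriptions and were not tested. The medians of the 122 were 0.12 in Su(var)3-9 minus yw and 0.06 in the double mutant minus Egg. All 23 genes are annotated as protein-coding, with a median gene length of 1515 bp against 1718 bp for all CG genes on the array, and 15 (65.2%) have 1 annotated transcript, against 56.1%.

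The difference with the egg mutant chromosome was tested by comparing Egg with yw and the double mutant with Su(var)3-9. These comparisons share no arrays. The gap was taken from the highest of the yw and Egg arrays, so the rule limited rises in Egg. The counts in Egg minus yw are therefore descriptions, and their distance to the background is not read as a result. In Egg minus yw, 16 of 32 members passed limma at an adjusted p under 0.05 (50.0%, against 50.9% of all probe sets), a share near the background. Of these 10 were higher and 6 lower, against 32.0% and 18.9% of all probe sets. Under cyclic loess 5 members were higher and 16 lower, and with centred arrays 17 and 3, so a direction is given here for the 8 whose call held under all 3 scalings. CG7900 rose by 1.24 ± 0.07 (limma adjusted p = 9.87e-08), CG13658 by 0.71 ± 0.13 (adjusted p = 0.000575), 1627829_at by 0.87 ± 0.11, 1630934_at by 0.81 ± 0.10 and 1623635_at by 1.61 ± 0.39 (adjusted p = 0.00344). CG31436 fell by 0.50 ± 0.08 (limma adjusted p = 0.00019), CG13056 by 0.63 ± 0.12 and CG11842 by 0.46 ± 0.08 (adjusted p = 0.000277). All 8 passed without any 1 of the 12 arrays. Egg and yw arrays did not overlap in 17 members (53.1%), against 58.6% of all probe sets. For CG10562, CG8927, CG15369 and CG13833 the change as deposited was 0.01, 0.03, 0.03 and 0.03. The 95% intervals were -0.17 to 0.19, -0.13 to 0.20, -0.32 to 0.37 and -0.22 to 0.28. These values also depended on the scaling. In the same order the changes were 0.24, 0.26, 0.25 and 0.25 with centred arrays and -0.31, -0.28, -0.21 and -0.28 after cyclic loess. CG10562 and CG8927 passed limma under both scalings, in opposite directions, and CG13833 passed only after cyclic loess.

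In the double mutant minus Su(var)3-9, 5 of 32 members passed (15.6%, against 5.17% of all probe sets), 1 higher and 4 lower, against 2.55% and 2.63%. The rule had left out probe sets far higher in Su(var)3-9 alone, so it limited falls in this comparison. The counts and signs given here are therefore descriptions, and their distance to the background is not read as a result. CG15369 fell by 0.93 ± 0.16 (limma adjusted p = 0.00403) and CG14153 rose by 0.42 ± 0.07 (adjusted p = 0.00477), and both passed without any 1 array. CG16959 fell by 0.38 ± 0.08 (limma adjusted p = 0.0195), CG17107 by 0.43 ± 0.10 (adjusted p = 0.0342) and CG11841 by 0.33 ± 0.08 (adjusted p = 0.0315). The call of CG16959 was lost without Su(var)3-9 replicate 1 or 2 or double mutant replicate 1 or 2 (adjusted p of 0.0713 to 0.0831). CG11841 and CG17107 each lost it on leaving out 7 of the 12 arrays in turn, and with the replicate number as a block in the fit (adjusted p = 0.0506 and 0.0651). The groups did not overlap in 14 members (43.8%), against 23.9% of all probe sets. The member median was -0.10, against -0.01 over all probe sets, and 25 of the 32 values were negative.

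The difference between these differences, the interaction, passed in 16 of 32 members (50.0%, against 40.6% of all probe sets). It was positive in 4 and negative in 12, against 15.8% and 24.9% of all probe sets, but 1 and 19 with centred arrays and 6 and 7 under cyclic loess, so the split depended on the scaling. The interaction contains Egg minus yw and the double mutant minus Su(var)3-9, and the rule limited both. Among the 6 probe sets left out, 4 passed with a negative interaction (-3.30 to -0.62) and CG40485 with a positive one (1.75). The count is therefore a description, and nothing is read from its distance to the background. A negative value means that the egg mutant chromosome went with a smaller rise or a larger fall in the presence of the Su(var)3-9 mutation than in its absence. The 8 members that passed under all 3 scalings were CG7900 (-1.11 ± 0.10, limma adjusted p = 6.03e-06), CG15369 (-0.96 ± 0.22), CG16959 (-0.79 ± 0.12), CG13658 (-0.75 ± 0.19), 1623635_at (-2.13 ± 0.55), 1627829_at (-1.08 ± 0.15), 1630934_at (-0.86 ± 0.14) and, in the positive direction, CG13056 (1.03 ± 0.17, adjusted p = 0.000366). Egg alone raised CG7900, while its change in the double mutant against Su(var)3-9 was 0.13 ± 0.07 and did not pass. CG13056 fell in Egg, and its change of 0.39 ± 0.12 in the other comparison did not pass (limma adjusted p = 0.0809). CG15369 had no detectable change in Egg and fell in the double mutant.

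**Figure D5:**
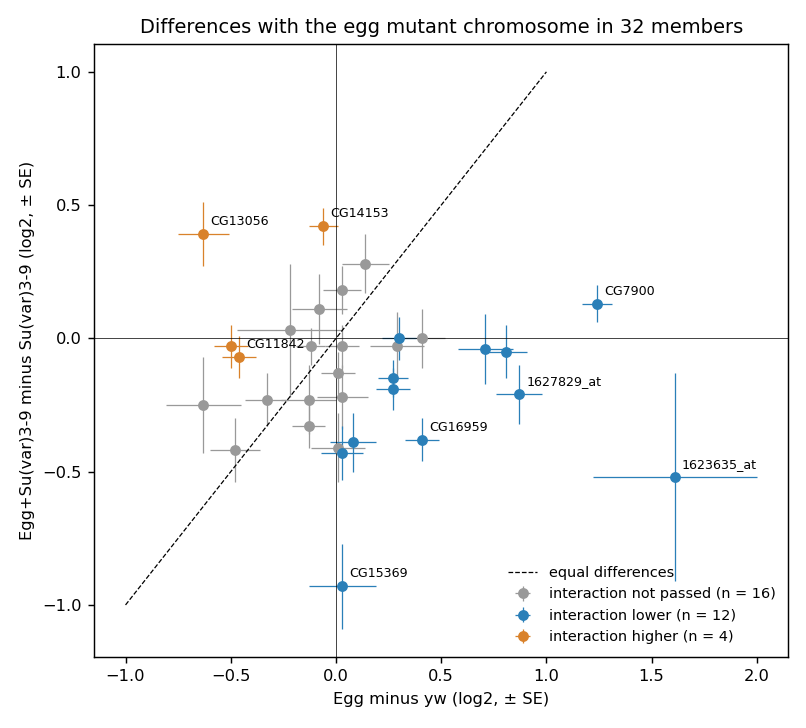
Each point is 1 of the 32 members, with the log2 change of Egg minus yw on the horizontal axis, that of the double mutant minus Su(var)3-9 on the vertical axis, and bars of 1 SE. The dashed line marks equal changes, and the 12 members with a negative interaction lie below it, CG7900, CG15369 and 1623635_at far from it.

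Some marker genes of fat body moved with the members and others did not. Of the 9 measured genes of that list, Fbp1, Fbp2, Lsp2 and Obp99b lay at least 0.5 above on all arrays with the Su(var)3-9 mutation (gaps of 2.16, 2.76, 0.70 and 2.15), against 0.645% of placed coding genes. Obp99b is also one of the neighbours of members named above. The other 5, fit, apolpp, Lpin, FASN1 and Obp99a, overlapped. In that order they changed by 1.56, 0.17, -0.37, 0.07 and 0.23 in Su(var)3-9 minus yw. In the double mutant minus Egg they changed by -0.62, -0.07, 0.09, 0.03 and 1.35. Fbp2, a larval fat body protein, averaged 6.57 in yw, 6.39 in Egg, 10.20 in Su(var)3-9 and 9.97 in the double mutant. No gene of the neuronal (17 measured), photoreceptor (14), blood cell (11) or ovary list (17) lay above on these arrays without overlap. The same held for the gut list (21), the testis list (24) and the muscle list (12). Over all placed coding genes 8.49% lay above without overlap, so nothing is read from such counts in lists of this size. The glial list had loco (gap of 0.11) and the accessory gland list PebIII (0.03), while 16 of 19 accessory gland genes lay at least 0.5 below. The part of these markers in the levels of the members was not tested.

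Genes of H3K9 methylation and of proteins that bind the mark were also looked at. None of the 16 measured genes lay above on all arrays with the Su(var)3-9 mutation, against 8.49% of all placed coding genes. With 16 genes, nothing is read from this count. In Su(var)3-9 minus yw 6 passed as higher and 2 as lower, against 44.4% and 17.3% of all probe sets, and in the double mutant minus Egg none was higher and 2 were lower, against 7.91% and 7.62%. The kinase gene JIL-1 rose in Su(var)3-9 by 0.90 (limma adjusted p = 9.29e-05) and changed by -0.08 in the double mutant minus Egg. It also rose in Egg against yw, by 0.99 (limma adjusted p = 4.07e-05), so all mutant groups were above yw. Pof, whose protein binds chromosome 4, fell by 3.38 in Su(var)3-9 and by 0.84 in the double mutant minus Egg (limma adjusted p = 2.35e-08 and 0.011). It also fell by 2.21 in Egg against yw (limma adjusted p = 1.45e-06). Its means were thus highest in yw and next in Egg, as were the medians of the testis and gut lists. Whether these are linked was not tested.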

How the data were processed

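The data are 1 deposited table of log2 signals per probe set. RMA (which normalises arrays to each other, so that differences are relative) and limma are the tools listed per the submitters' processing notes. Their versions were not given in the sources used here. The column of a technical second array of yw replicate 1 held no values, which left 12 of 13 arrays and 1 column not used. Control probe sets (183 of 18952) were dropped. Of the others, 13646 had 1 symbol in the platform annotation (5667 a CG symbol), 402 several and 4721 none. Gene IDs placed 5581 CG probe sets through RefSeq Release 6. The files name no genome build, so no coordinates are given.

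Group means of the 4 genotypes were fitted to all 18769 probe sets by limma 3.58.1 (lmFit and eBayes) in R 4.3.3. Each probe set had 8 residual degrees of freedom, and the prior added 4.162. Tests were two-sided, with Benjamini-Hochberg adjustment over all probe sets and a threshold of 0.05, and were tested on simulated data. Tables used Python 3.11.15, whose pandas was 2.3.3 and numpy 2.4.6. The number of arrays limits the precision. The labels call replicates biological without naming separate cultures, so p-values measure the spread between these samples. Genes with several probe sets were read by the brightest. Members and gene lists were chosen with earlier results of these data known. The rule named the 15 largest gaps among CG members, neighbouring members, the 5 largest passing changes in each direction per test, the 6 largest gaps among unnamed members and up to 4 genes per list. Other members and genes were named after their values were seen, as were the stretches from CG13658 and from CG13043. Same-numbered arrays of different groups had correlations of -0.36 to 0.101 in their deviations from group means, so the numbers were not taken as pairs. The closing section lists the alternatives.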

Additional observations from a re-analysis of the deposited data

Results flagged for a closer look

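The interaction test found that the difference going with the egg mutant chromosome was not the same with and without the Su(var)3-9 mutation in 4 members with a positive and 12 with a negative value (limma adjusted p under 0.05). The most negative values were those of 1623635_at (-2.13), CG7900 (-1.11), 1627829_at (-1.08), CG15369 (-0.96) and 1630934_at (-0.86). The positive ones were those of CG13056 (1.03), CG14153 (0.48), CG31436 (0.46) and CG11842 (0.39). Of these 9, CG14153, CG31436 and CG11842 did not pass with arrays centred on their medians. Over all probe sets 40.6% passed this test, and the split by sign was 1 and 19 with centred arrays and 6 and 7 under cyclic loess. The interaction contains Egg minus yw and the double mutant minus Su(var)3-9, and the choice of members limited both.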

How the results depend on the processing

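The counts of members that passed limma moved with several settings. In Egg minus yw (10 higher, 6 lower), centring gave 17 and 3, cyclic loess 5 and 16, and a 1.5-fold minimum 5 and 2, and leaving out 1 array gave 9 to 11 and 4 to 7. In the double mutant minus Su(var)3-9 (1 higher, 4 lower), a replicate block gave 2 and 2, a fit of only the groups compared 2 lower, trend and robust eBayes 2 higher, a 1.5-fold minimum 0 and 1, and leaving out 1 array 1 higher and 1 to 6 lower. In the interaction (4 higher, 12 lower), centring gave 1 and 19, cyclic loess 6 and 7, a 1.5-fold minimum 1 and 7, and leaving out 1 array 4 higher and 9 to 14 lower. The replicate block left the counts of Egg minus yw at 10 and 6 and of the interaction at 4 and 12. The rule gave 124 members with a gap of 0.25, 5 with a gap of 1.0, 99 with centring, 15 with cyclic loess and 31 to 41 without 1 array. Leaving out an array can only keep or widen a gap. Members could thus be lost there only by the exclusion of probe sets far higher in Su(var)3-9 alone. The share of placed members on chromosome 3 was 54.8% with a gap of 0.25, 56.2% with centring and 67.9% to 88.0% without 1 array, alternatives chosen after seeing the data. CG13024 was 0.27 in Egg minus yw and -0.07 under cyclic loess (limma adjusted p = 0.537), and was the 1 called single value to turn its sign. Of the other called single values over all alternatives, 643 kept the call and 78 lost it, 21 of them only through the 1.5-fold minimum, which leaves the adjusted p as it was. The cause was not tested. Fits with the second array of yw replicate 1, alone or averaged with the first, were not run, since its column is empty.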
